A study of Mus musculus with 24 samples.

Results

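Mouse hypothalamic neuronal cells kept in normal glucose with mogroside V at the dose labelled 3 (NG3, libraries NG3_1, NG3_2 and NG3_3) were compared with the same cells in normal glucose without it (NGC, libraries NGC_1, NGC_2 and NGC_3). The 6 libraries were chosen by their titles, out of 24 in the series. NG was read as normal glucose, C as the control and the number as a dose label. The series crosses 2 glucose media with 4 treatment levels in the same line, with 3 libraries a group. The doses named in its design are 15, 60 and 160 µM, and which of these the label 3 stands for is not stated. NG1 and NG2 are the lower-numbered dose labels in normal glucose, and HGC and HG3 are the control and dose label 3 in high glucose. The glucose concentrations, the time of exposure and the vehicle are not given in the sources used here, and all groups come from 1 cell line. The labels do not say whether the replicates of a group were grown apart. The p-values therefore speak of the spread among the libraries, and that spread may be technical.

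Mogroside V is a sweet triterpene glycoside of monk fruit, used as a sweetener. Neurons of the hypothalamus read glucose, insulin and leptin to set feeding and glucose output, and sweet taste receptors, the energy sensor AMPK and the growth kinase mTORC1 are among the routes by which cells read nutrients. The genes described here also include chromatin proteins, which set which genes can be read, RNA-binding proteins, and the initiation factors that bring ribosomes to mRNA.

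Gene counts were 3792926 to 5210198 per library in the 6 libraries. Values are given as CPM, read counts scaled to the library total with TMM factors, and differences are on the log2 scale. The labelled cell type was only partly visible in its markers: 8 of 17 neuronal markers passed the low-count filter, and their sum was 175 to 182 CPM in NGC and 194, 158 and 197 CPM in NG3_1, NG3_2 and NG3_3. Of 22 hypothalamic peptides and receptors, 2 passed the filter, and Pomc, Agrp, Npy, Cartpt and Lepr were at or below 0.74 CPM in each of the 6 libraries. Fibroblast and pericyte markers were abundant, at 6862 to 7237 CPM summed over 12 genes in NGC, and at 6647, 5996 and 5521 CPM in the 3 NG3 libraries. These sums rest on the most abundant members. Of the 10 members that passed the filter, 8, 3 and 7 were above the NGC mean in NG3_1, NG3_2 and NG3_3. Their median log2 differences were 0.11, -0.29 and 0.11. Across 20 genes that separate the media, chosen without the NG3 libraries, NG3_1 lay on the normal-glucose side in 19 and NG3_2 and NG3_3 in 20 each. They lay within the range of the other normal-glucose libraries in 14, 16 and 9 of the 20.

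NG3_3 stood apart from the other 11 normal-glucose libraries. Its Pearson correlation over genes with them was 0.943 to 0.953. Leaving NG3_3 out, it was 0.963 to 0.971 for NG3_1 and 0.962 to 0.971 for NG3_2. The low end of NG3_1, 0.963, was its correlation with NG3_2, so these 2 libraries were not especially alike. With NGC_1, NGC_2 and NGC_3 the correlation was 0.971, 0.968 and 0.968 for NG3_1, and 0.962, 0.969 and 0.968 for NG3_2. It had 16535 genes with a count, against 17342 to 18935 in the others. Reads outside genes were 14.4% of its reads, against 17.6 to 20.6%, and mitochondrial transcripts 5.43% of its gene counts, against 6.46 to 8.10%. For each library, genes were counted that lay at least 2-fold from the NGC mean and outside the range of the other 11 normal-glucose libraries, among genes with 5 CPM or more in that library or in the NGC mean. NG3_3 had 144 such genes higher and 483 lower, NG3_1 had 86 and 50, and NG3_2 had 129 and 95. On the lower side NG3_3 was apart from the other 11 libraries, which had 29 to 95 genes. On the higher side it was close to the top of the others, which had 39 to 129. Both upper ends were NG3_2, and the next were 56 lower in NG2_2 and 111 higher in NG1_2. With 20 CPM or more, 253 genes were lower in NG3_3, 33 in NG3_2 and 6 in NG1_3, the next.

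**Figure D1:**
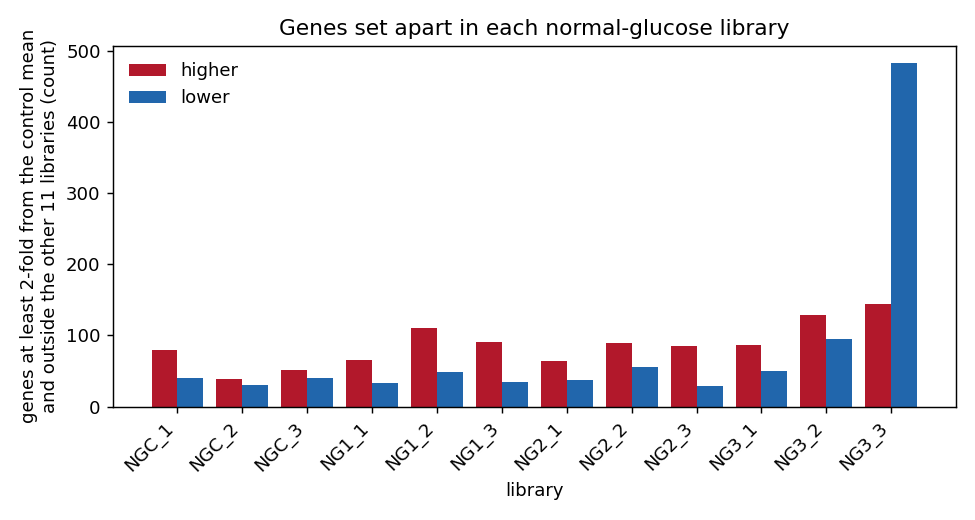
Number of genes (y axis) at least 2-fold from the NGC mean and outside the range of the other 11 libraries, for each normal-glucose library (x axis), higher in red and lower in blue. NG3_3 has 483 genes lower, against 29 to 95 in the other libraries.

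With all 3 NG3 libraries in the comparison, 17 of 13281 genes passed an adjusted p of 0.05 (edgeR quasi-likelihood test, Benjamini-Hochberg), which is 0.128% of the genes tested. Of these, 1 rose (0.00753%) and 16 fell (0.12%). The count depended on the fit: no gene passed by edgeR with only NG3 and NGC or only normal glucose in the fit, or by limma with voom library weights (725, 1142 and 1066 genes at an unadjusted p under 0.05). There were 5 calls with RLE factors, 53 with all 24 files, 150 with DESeq2 and 186 with no low-count filter. The 16 that fell are Mphosph8, Rest, Baz2b and Smc1a of chromatin, Prpf4b, Zfr, Ssb and Esf1 of RNA processing, Eif3a, Eif3j1, Mrps5 and Pfdn1 of translation and folding, Rfc1 and Ckap2l of the cell cycle, and Ankhd1 and Mtdh. The gene that rose is Gm1673. At an unadjusted p under 0.05 there were 1377 genes (10.4%), 573 higher (4.31%) and 804 lower (6.05%).

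Mphosph8, a subunit of the HUSH complex that silences chromatin, had the lowest p. It had 140.5, 119.8 and 111 CPM in the NGC libraries and 66.6, 73.04 and 71.1 CPM in NG3_1, NG3_2 and NG3_3. The 3 NG3 values lie close together, below all NGC values, with a log2 change of -0.82 ± 0.15 (SE; adjusted p = 0.0343). Rest, the repressor of neuronal genes in other cells, had 146, 127 and 119 CPM in the NGC libraries and 96.9, 96.7 and 53.3 CPM in NG3_1, NG3_2 and NG3_3. NG3_1 and NG3_2 were alike and NG3_3 was much lower, with a log2 change of -0.67 ± 0.15 (SE; adjusted p = 0.0463) over the 3 libraries. Baz2b, a bromodomain protein, had 186, 165 and 149 CPM in the NGC libraries and 130.2, 118 and 91.4 CPM in NG3_1, NG3_2 and NG3_3. Smc1a, a core subunit of the cohesin ring that holds sister chromatids together, had 739, 731 and 675 CPM in the NGC libraries and 527, 575 and 445 CPM in NG3_1, NG3_2 and NG3_3. Both fell, by 0.56 ± 0.12 and 0.47 ± 0.10 on the log2 scale (SE; adjusted p = 0.0463 each), with no overlap between the groups.

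The genes of RNA processing and translation showed the same order, with NG3_1 and NG3_2 below NGC and NG3_3 the lowest. Prpf4b, a kinase of the spliceosome, had 197, 165 and 160.3 CPM in the NGC libraries and 128, 125 and 72.8 CPM in NG3_1, NG3_2 and NG3_3, a log2 change of -0.68 ± 0.14 (SE; adjusted p = 0.0445). Ssb, the La protein that binds the ends of small RNAs, had 546, 483 and 420.3 CPM in the NGC libraries and 366, 373 and 229.9 CPM in NG3_1, NG3_2 and NG3_3, a log2 change of -0.58 ± 0.12 (SE; adjusted p = 0.0463). Esf1, a nucleolar protein of ribosomal RNA processing, had 215, 189 and 163 CPM in the NGC libraries and 131, 134 and 100.1 CPM in NG3_1, NG3_2 and NG3_3, a log2 change of -0.64 ± 0.13 (SE; adjusted p = 0.0445). In each of these genes the highest NG3 value was below the lowest NGC value. Eif3a, the scaffold subunit of the initiation factor eIF3, had 1044, 881 and 801 CPM in the NGC libraries and 709, 666 and 425 CPM in NG3_1, NG3_2 and NG3_3. NG3_3 held less than the lowest of the other 11 normal-glucose libraries, which ranged over 616 to 1044 CPM, and the log2 change over the 3 libraries was -0.60 ± 0.13 (SE; adjusted p = 0.0463). Eif3j1, a loosely bound subunit of the same factor, had 163, 105 and 85.2 CPM in the NGC libraries and 72.02, 47.5 and 42.1 CPM in NG3_1, NG3_2 and NG3_3. The fall was -1.13 ± 0.22 (SE; adjusted p = 0.0463) on the log2 scale, and NGC_1 was far above the other 2 controls. Eif3j1 has a near-identical copy, Eif3j2, so reads that align to both could have been left out of the gene counts. Mrps5, a protein of the mitochondrial ribosome, had 106, 95.1 and 97.1 CPM in the NGC libraries and 70.3, 62.8 and 61.9 CPM in NG3_1, NG3_2 and NG3_3. In Mrps5, as in Mphosph8, NG3_3 was at the level of NG3_1 and NG3_2, and the log2 change was -0.61 ± 0.13 (SE; adjusted p = 0.0463). Zfr, a zinc-finger protein that binds RNA, had 228, 194 and 205 CPM in the NGC libraries and 155, 163 and 111 CPM in NG3_1, NG3_2 and NG3_3, a log2 change of -0.55 ± 0.12 (SE; adjusted p = 0.0463).

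Among the remaining called genes, Ckap2l, a protein of the mitotic spindle, had 172, 133 and 143 CPM in the NGC libraries and 95.2, 103 and 52.3 CPM in NG3_1, NG3_2 and NG3_3. It fell by 0.84 ± 0.17 on the log2 scale (SE; adjusted p = 0.0463), and NG3_3 was farther below NG3_1 and NG3_2 than these were below NGC. Rfc1, the large subunit of the clamp loader of DNA replication, had 224, 202 and 209 CPM in the NGC libraries and 157, 168 and 115 CPM in NG3_1, NG3_2 and NG3_3, a log2 change of -0.53 ± 0.11 (SE; adjusted p = 0.0463). Pfdn1, a subunit of the prefoldin chaperone, had 268, 245 and 246 CPM in the NGC libraries and 191, 182 and 157 CPM in NG3_1, NG3_2 and NG3_3, a log2 change of -0.52 ± 0.10 (SE; adjusted p = 0.0445). These groups did not overlap either. Ankhd1, an ankyrin-repeat and KH-domain protein, had 243, 222 and 219 CPM in the NGC libraries and 172, 168 and 98.6 CPM in NG3_1, NG3_2 and NG3_3, and Mtdh, also called metadherin, had 539.6, 558 and 477 CPM in the NGC libraries and 389, 417 and 315 CPM in NG3_1, NG3_2 and NG3_3. Gm1673, a small predicted gene, had 21.8, 26.9 and 22.6 CPM in the NGC libraries and 46.1, 44.5 and 54.5 CPM in NG3_1, NG3_2 and NG3_3. It was about doubled in each of the NG3 libraries, with a log2 change of 1.03 ± 0.21 (SE; adjusted p = 0.0445).

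**Figure D2:**
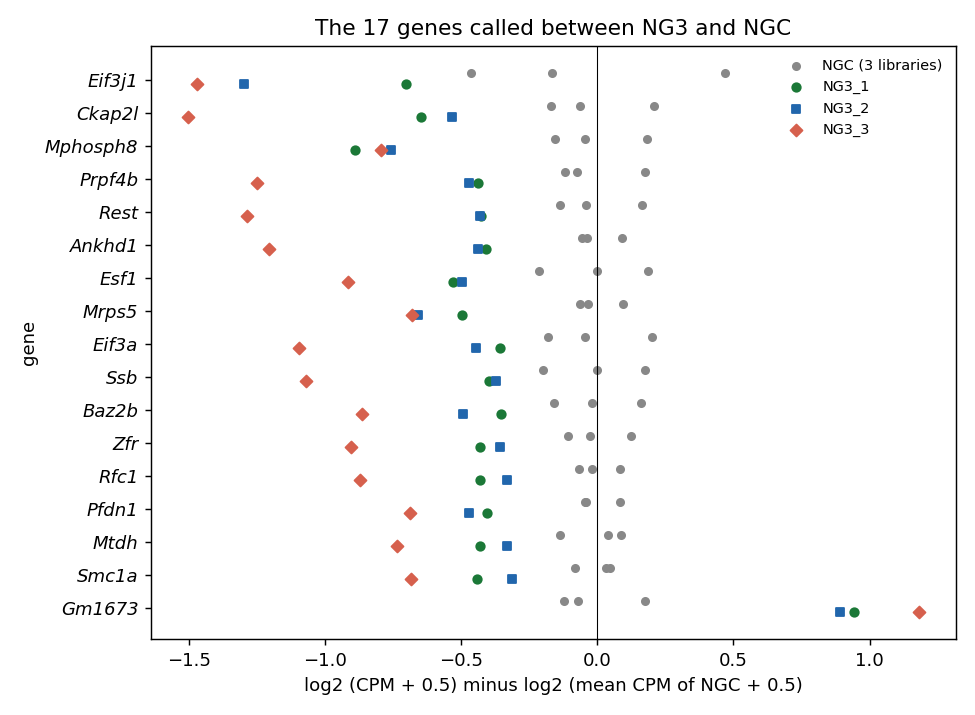
Log2 of CPM plus 0.5 minus the log2 of the NGC mean plus 0.5 (x axis) for the 17 called genes (y axis), with NGC libraries in grey and NG3_1, NG3_2 and NG3_3 in green, blue and red. All 3 NG3 libraries lie outside the NGC range in each gene, and NG3_3 is the farthest in 16 of the 17.

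In all 17 called genes, NG3_1, NG3_2 and NG3_3 lay outside the NGC range on the same side, which is a description, since the genes were called on these libraries. Over all genes tested, the 3 libraries lay above the NGC range in 807 genes (6.08%) and below it in 817 (6.15%). NG3_3 was the most extreme NG3 library in 16 of the 17 genes, and lay outside the other 11 normal-glucose libraries in 16. The median log2 change of the 16 genes that fell was -0.61 with the 3 libraries and -0.43 without NG3_3. NGC_1 was the highest control in 15 of the 16. Without NG3_3, without NGC_1 or without NGC_2, no gene passed by edgeR (1139, 900 and 1212 genes at an unadjusted p under 0.05). Without NGC_3 there were 45 calls, without NG3_1 106 and without NG3_2 182. The median GC share of the longest transcript was 45.2% for the 16 genes that fell, against 48.9% for all genes tested, and their median length was 4800.5 against 3223 bases. With the GC trend of each library removed, 17 genes passed, 15 of them among the 17.

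NG3_1 and NG3_2 were then compared with NGC without NG3_3. No gene passed an adjusted p of 0.05 by edgeR (0% of 13234), and 1139 were at an unadjusted p under 0.05 (8.61%), 512 higher (3.87%) and 627 lower (4.74%). The same comparison by DESeq2 called 32 genes, 6 higher and 26 lower, and 12 of the 32 were among the 17 above. NG3_3 took no part in that fit, but it is set against the same NGC libraries, so its values are given beside those of NG3_1 and NG3_2 as a description.

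The 32 genes included Rfc1 and 4 other members of the gene lists. Eif2s2, a subunit of the initiation factor eIF2, had 1036, 918 and 952 CPM in the NGC libraries and 777, 703 and 702 CPM in NG3_1, NG3_2 and NG3_3, a log2 change of -0.39 ± 0.10 without NG3_3 (SE; DESeq2 adjusted p = 0.0399). All 3 NG3 libraries were alike in it. Srsf11, a splicing regulator, had 461, 429 and 353 CPM in the NGC libraries and 322, 299 and 271 CPM in NG3_1, NG3_2 and NG3_3, a change of -0.41 ± 0.12 (DESeq2 adjusted p = 0.0498). Rpl11, a ribosomal protein that also binds the p53 ligase Mdm2, had 1261, 1053 and 1105 CPM in the NGC libraries and 900.3, 767 and 1093 CPM in NG3_1, NG3_2 and NG3_3, a change of -0.45 ± 0.12 (DESeq2 adjusted p = 0.0498). For Rpl11, NG3_3 was inside the NGC range. Neat1, the RNA that builds nuclear paraspeckles, had 546, 699 and 477 CPM in the NGC libraries and 354, 362 and 463 CPM in NG3_1, NG3_2 and NG3_3, a change of -0.68 ± 0.16 (DESeq2 adjusted p = 0.0235). By edgeR the adjusted p-values of these 4 without NG3_3 were 0.244, 0.244, 0.244 and 0.246.

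Among the genes of lowest p without NG3_3, NG3_3 lay on the same side of the NGC range as NG3_1 and NG3_2 in Mphosph8, Ckap2l, Pfdn1, Gm1673, Dda1, Mpp6, Serf2 and Aktip, and on the other side in Zcchc14 and Dcp1a. Dda1, a component of CRL4 ubiquitin ligases, had 32.96, 45.5 and 44.01 CPM in the NGC libraries and 56.97, 74.2 and 65.1 CPM in NG3_1, NG3_2 and NG3_3, a log2 difference of 0.69 ± 0.17 (SE; adjusted p = 0.244) without NG3_3. Mpp6, a membrane scaffold protein, had 78.7, 83.03 and 80.9 CPM in the NGC libraries and 54.02, 53.8 and 56.2 CPM in NG3_1, NG3_2 and NG3_3, a difference of -0.59 ± 0.14 (SE; adjusted p = 0.244). NG3_3 was at the level of NG3_1 and NG3_2 in both genes.

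Zcchc14, a zinc-knuckle protein, had 31.4, 40.4 and 33.1 CPM in the NGC libraries and 48.8, 68.9 and 20.3 CPM in NG3_1, NG3_2 and NG3_3. NG3_1 and NG3_2 were above every control, by 0.75 ± 0.18 (SE; adjusted p = 0.244) on the log2 scale, and NG3_3 was below every control. Dcp1a, a cofactor of mRNA decapping, had 6.87, 6.54 and 8.56 CPM in the NGC libraries and 14.3, 22.03 and 5.45 CPM in NG3_1, NG3_2 and NG3_3, with the same pattern and 1.31 ± 0.33 (SE; adjusted p = 0.244) without NG3_3. Serf2, a small protein linked to protein aggregation, had 79.3, 90.5 and 85.6 CPM in the NGC libraries and 128, 137 and 91.4 CPM in NG3_1, NG3_2 and NG3_3, 0.64 ± 0.16 (SE; adjusted p = 0.244) without NG3_3. Here NG3_3 was above the highest control by little. Aktip, which links Hook proteins to vesicle transport, had 23.7, 22.8 and 26.9 CPM in the NGC libraries and 13.1, 10.7 and 18.6 CPM in NG3_1, NG3_2 and NG3_3, -1.04 ± 0.25 (SE; adjusted p = 0.244) without NG3_3, and NG3_3 lay between NG3_1 and the lowest control.

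Of the upward differences of lowest p with all 3 libraries, Gm1673 and Dda1 are given above. Gm1673 was largest in NG3_3, as were Polr2f, Dazap1 and Aar2, and Dda1 was largest in NG3_2. Polr2f, a subunit shared by the nuclear RNA polymerases, had 131, 119 and 97.5 CPM in the NGC libraries and 148, 182 and 211 CPM in NG3_1, NG3_2 and NG3_3, and its log2 difference was 0.64 ± 0.14 (SE; adjusted p = 0.0506). Dazap1, an RNA-binding splicing regulator, had 251, 259.5 and 211 CPM in the NGC libraries and 287, 342 and 398 CPM in NG3_1, NG3_2 and NG3_3, and Aar2, an assembly factor of the U5 particle of the spliceosome, had 18.1, 23.2 and 22.6 CPM in the NGC libraries and 26.6, 38.7 and 44.3 CPM in NG3_1, NG3_2 and NG3_3. Their log2 differences were 0.51 ± 0.12 (SE; adjusted p = 0.0669) and 0.78 ± 0.19 (SE; adjusted p = 0.0696). None of the 3 passed the threshold, although each NG3 library was above each NGC library.

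The position of NG3_3 in genes where NG3_1 and NG3_2 stood on one side was counted over all genes. NG3_1 and NG3_2 both lay above the NGC range in 1637 genes (12.3%), and in these NG3_3 was also above in 49.3%, inside in 23% and below in 27.7%. Both lay below the NGC range in 1498 genes (11.3%), and in these NG3_3 was also below in 54.5%, inside in 24.8% and above in 20.6%. All 3 libraries are set against the same NGC libraries, which by itself places them on one side together, so no shared effect is read from these counts. The plot of NG3_3 against the mean of NG3_1 and NG3_2 shows the values of all genes, and the genes of NG3_3 alone were chosen by their value on its vertical axis.

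**Figure D3:**
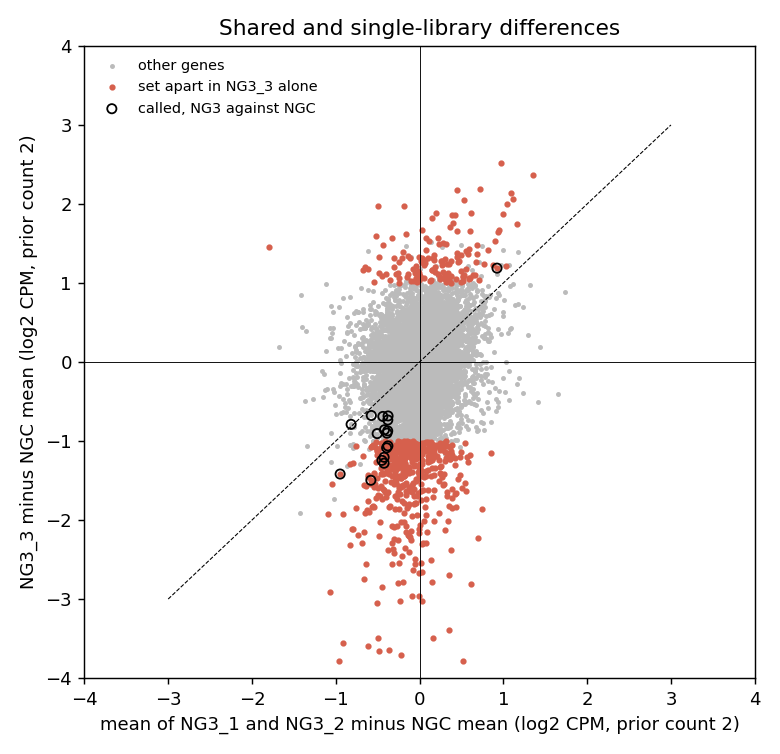
Difference of NG3_3 from the NGC mean (y axis) against that of the mean of NG3_1 and NG3_2 (x axis), in log2 CPM with a prior count of 2, for 10531 tested genes with 5 CPM or more in NG3_3 or the NGC mean. Both axes share the NGC libraries. The 626 genes at least 2-fold from NGC and outside the other 11 libraries in NG3_3 are red, and were chosen by their value in NG3_3.

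What NG3_3 showed alone was counted among 10532 genes with 5 CPM or more: 144 were higher (1.37%) and 483 lower (4.59%). This is 1 library, so no test applies. At the 144 genes the median log2 difference was 1.24 in NG3_3, 0.27 in NG3_1 and 0.30 in NG3_2. At the 483 genes it was -1.33 in NG3_3, -0.17 in NG3_1 and -0.15 in NG3_2. NG3_1 and NG3_2 both lay outside NGC on the same side as NG3_3 in 29 of the higher and 121 of the lower genes. Both lay on the opposite side in 6 and 31, and both within the NGC range in 37 and 86. Over all genes tested, both lay above the NGC range in 12.3% and below it in 11.3%.

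The largest differences of NG3_3 upwards were in genes of low count. Bmf, a BH3-only protein that promotes cell death, had 1.96, 0.726 and 0.476 CPM in the NGC libraries and 1.48, 3.48 and 7.68 CPM in NG3_1, NG3_2 and NG3_3. Abhd11, a mitochondrial hydrolase, had 0.196, 4.12 and 1.90 CPM in the NGC libraries and 4.44, 4.64 and 9.66 CPM in NG3_1, NG3_2 and NG3_3, and Ak4, a mitochondrial adenylate kinase, had 1.18, 0.968 and 1.19 CPM in the NGC libraries and 2.96, 3.01 and 6.19 CPM in NG3_1, NG3_2 and NG3_3. NG3_3 was above all others in the 3 genes, and NGC values were at most 4.12 CPM. For Abhd11 and Ak4, NG3_1 and NG3_2 were also above every control, and for Bmf NG3_2 was. Spats2l, Spata2l, Gm26770, Gm15222, Gm20324, Gm9908 and Gm20337 complete the 10 largest, with 5.20 to 7.18 CPM in NG3_3.

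The largest differences downwards held genes at or near 0 in NG3_3, where a count of 0 allows up to 0.743 CPM (3 counts, counting error only). Nrbf2, a subunit of the lipid kinase complex that starts autophagy, had 4.91, 7.75 and 5.47 CPM in the NGC libraries and 5.18, 4.87 and 0 CPM in NG3_1, NG3_2 and NG3_3. Lrch3, a leucine-rich repeat protein, had 22.6, 20.1 and 18.6 CPM in the NGC libraries and 14.8, 11.6 and 1.24 CPM in NG3_1, NG3_2 and NG3_3. The other 11 normal-glucose libraries had 4.10 to 8.95 CPM of Nrbf2 and 11.6 to 22.6 CPM of Lrch3. For Lrch3, NG3_1 and NG3_2 were also below every control. Gm42899, Gm19353, Gm45762, Gm37663 and ENSMUSG00000121492 were at 0 in NG3_3, and Gm43621 and ENSMUSG00000118809 at 0.495 and 0.248 CPM. Altogether 6 of the 483 genes were at 0.

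Malat1, Prc1, Pabpc1 and Col1a2 of the gene lists, and Ppargc1a of a fixed set of genes, were low in NG3_3. For Col1a2, NG3_1 and NG3_2 were also below every control, and for Pabpc1 both were inside the NGC range. Malat1, an abundant nuclear RNA, had 4839.7, 4589.5 and 3401 CPM in the NGC libraries and 3215, 3607 and 822 CPM in NG3_1, NG3_2 and NG3_3. Prc1, which bundles microtubules between separating chromosomes, had 62.6, 66.6 and 51.9 CPM in the NGC libraries and 62.6, 60.5 and 11.9 CPM in NG3_1, NG3_2 and NG3_3. Ppargc1a, the coactivator of mitochondrial biogenesis, had 9.42, 11.4 and 11.4 CPM in the NGC libraries and 10.9, 12.8 and 1.49 CPM in NG3_1, NG3_2 and NG3_3. NG3_3 was far below every control in the 3 genes. NG3_1 was also below every control for Malat1, and NG3_1 and NG3_2 were inside the NGC range for Prc1. Pabpc1, the poly(A)-binding protein, had 1754, 1599.6 and 1526 CPM in the NGC libraries and 1554, 1572 and 657 CPM in NG3_1, NG3_2 and NG3_3, and Col1a2, a collagen chain, had 3337, 3422 and 3128 CPM in the NGC libraries and 2949, 2795 and 1404 CPM in NG3_1, NG3_2 and NG3_3.

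The base composition of these transcripts is shown by 90-base stretches of coding sequence, taken from GENCODE M21 transcripts (GRCm38) where the GC share is nearest that of the longest transcript, 5′ to 3′, with G and C in capitals. The genes are the 3 protein-coding genes with 20 CPM or more that were lowest in NG3_3 and the 3 that were highest.
Lrch3: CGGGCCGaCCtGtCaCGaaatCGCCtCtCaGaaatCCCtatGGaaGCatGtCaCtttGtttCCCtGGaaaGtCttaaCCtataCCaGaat
Thoc7: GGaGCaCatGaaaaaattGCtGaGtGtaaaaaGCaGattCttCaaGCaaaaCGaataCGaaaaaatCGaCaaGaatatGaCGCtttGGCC
Kif20b: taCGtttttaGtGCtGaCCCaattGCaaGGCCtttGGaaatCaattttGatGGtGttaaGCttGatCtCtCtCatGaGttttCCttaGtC
Jup: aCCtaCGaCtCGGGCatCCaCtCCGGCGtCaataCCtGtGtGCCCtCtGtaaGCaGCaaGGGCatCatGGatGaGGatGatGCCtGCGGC
Nrbp2: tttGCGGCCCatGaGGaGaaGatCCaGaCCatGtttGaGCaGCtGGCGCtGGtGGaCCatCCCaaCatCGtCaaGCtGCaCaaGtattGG
Zfp414: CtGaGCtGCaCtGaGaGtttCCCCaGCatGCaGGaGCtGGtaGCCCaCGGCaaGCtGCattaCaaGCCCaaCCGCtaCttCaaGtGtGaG
G and C make up 43, 34 and 35 of the 90 bases in Lrch3, Thoc7 and Kif20b, which were low in NG3_3, and 53, 49 and 51 in Jup, Nrbp2 and Zfp414, which were high. The GC share of the Lrch3 transcript, 47.9%, was near the median of all genes tested, 48.9%.

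Thoc7, a subunit of the mRNA export complex, had 57.5, 56.9 and 57.3 CPM in the NGC libraries and 49.8, 65.6 and 6.94 CPM in NG3_1, NG3_2 and NG3_3. Kif20b, a kinesin of cell division, had 263, 219 and 181 CPM in the NGC libraries and 169, 150.2 and 29.97 CPM in NG3_1, NG3_2 and NG3_3. Jup, the junction protein plakoglobin, had 48.3, 38.7 and 31.6 CPM in the NGC libraries and 75.5, 37.8 and 124 CPM in NG3_1, NG3_2 and NG3_3. For Jup, NG3_1 was also above NGC, and NG3_2 was not. Nrbp2, a pseudokinase, had 7.26, 10.4 and 5.71 CPM in the NGC libraries and 11.1, 13.9 and 20.3 CPM in NG3_1, NG3_2 and NG3_3, and Zfp414, a zinc-finger protein, had 18.6, 13.6 and 14.7 CPM in the NGC libraries and 13.3, 18.5 and 38.4 CPM in NG3_1, NG3_2 and NG3_3. NG3_1 and NG3_2 were also below every control for Kif20b and above every control for Nrbp2. In the 6 genes the value of NG3_3 lay outside the range of the other 11 normal-glucose libraries, as the rule of choice required.

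Over 10456 genes with a transcript, the difference of NG3_3 from NGC was higher at higher GC share, with a median of -0.22 in the quintile of lowest GC (28.7 to 43.4%), then -0.09, 0.01, 0.14 and 0.23 in the quintile of highest GC (55.0 to 71.3%). In NG3_1 the outer quintiles were at -0.02 and 0.06, and in NG3_2 at 0.05 and -0.04. The share of genes in the lower set of NG3_3 was 10.7% in the quintile of lowest GC and 1.10% in that of highest GC. By length, the median of NG3_3 went from 0.18 in the shortest quintile (66 to 1925 bases) to -0.19 in the longest (5423 bases and more), while NG3_1 and NG3_2 stayed between -0.01 and 0.04 in all quintiles. Spearman's correlation across genes between GC share and the difference was 0.35 in NG3_3, 0.09 in NG3_1 and -0.09 in NG3_2. With length it was -0.26, 0.03 and 0.03. Genes are not independent replicates, so these are descriptions. The 483 lower genes had a median GC share of 43.9% and a median length of 4373 bases, and the 144 higher genes 53.3% and 2633.5 bases. The part of composition in the difference of single genes was not tested.

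**Figure D4:**
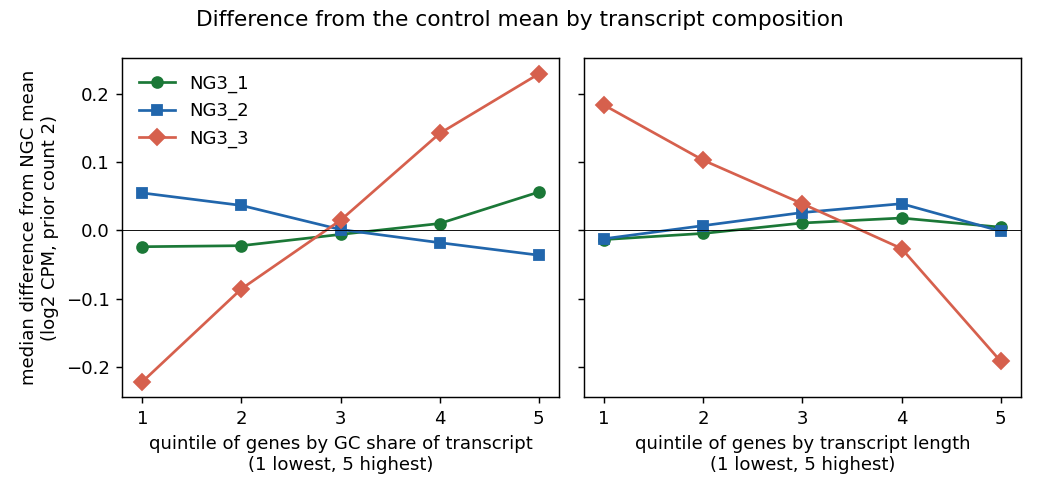
Median difference from the NGC mean (y axis, log2 CPM with a prior count of 2) in each NG3 library for genes in quintiles by GC share (left) and by length (right) of the longest transcript (x axis, 1 lowest and 5 highest). NG3_3 goes from -0.22 to 0.23 with GC and from 0.18 to -0.19 with length, and NG3_1 and NG3_2 stay within 0.06 of 0.

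Protein-coding genes made up 394 of the 483 lower and 111 of the 144 higher genes. Among the 10531 tested genes with 5 CPM or more they were 9727, a larger share than in either set. Of 192 loci that the annotation marks as still to be experimentally verified (the TEC class), 24.5% were in the lower set, against 4.05% of protein-coding genes. The median difference of these loci was -0.37 in NG3_3, -0.05 in NG3_1 and -0.13 in NG3_2. The lower set also held 10% of 80 long intergenic noncoding RNAs, 9.33% of 75 antisense genes and 10.8% of 74 IDs without a class. It held 4.41% of 68 processed transcripts and 3.64% of 220 processed pseudogenes.

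Of 765 tested members of 55 gene lists, 2 were called with the 3 libraries, Eif3a of the translation factors and Rfc1 of DNA replication. Without NG3_3 no list member passed by edgeR, and 5 passed by DESeq2, the 4 named above and Rfc1. Lists are given by their counts and medians beside those of all genes, whose median was 0.01 in each NG3 library. NG3_3 lay above the other 11 normal-glucose libraries in 16.4% and below them in 20.5% of all genes. Of 19 lists with 20 or more tested members, 7 had medians of the same sign in the 3 libraries.

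Translation factors were low in all 3 libraries by their median, which was -0.15, -0.05 and -0.07 in NG3_1, NG3_2 and NG3_3. Without NG3_3, 6 of 21 were lower and 2 higher at an unadjusted p under 0.05, against 4.74% and 3.87% of all genes. NG3_1 and NG3_2 both lay below the NGC range in 9 and above it in 2, against 11.3% and 12.3% of all genes. Eif2s1, the regulated subunit of eIF2, had 105, 85.5 and 95.9 CPM in the NGC libraries and 75.97, 70.02 and 78.3 CPM in NG3_1, NG3_2 and NG3_3. Eef2, the elongation factor that moves the ribosome, had 1464, 1359 and 1387 CPM in the NGC libraries and 1219.9, 1091 and 1373 CPM in NG3_1, NG3_2 and NG3_3, and there NG3_3 was at the control level. Eef1a1, which brings aminoacyl-tRNA to the ribosome, went the other way, with 202, 191 and 148 CPM in the NGC libraries and 270.3, 302 and 123 CPM in NG3_1, NG3_2 and NG3_3: NG3_1 and NG3_2 were above and NG3_3 below the controls.

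Ribosome biogenesis factors had medians of -0.08, -0.05 and -0.17, with 6 of 25 lower and 0 higher at an unadjusted p under 0.05 without NG3_3. Of all genes, 4.74% were lower and 3.87% higher at that p. Nop56 and Dkc1 are core proteins of the particles that modify ribosomal RNA. Nop56 had 129, 97.1 and 79.5 CPM in the NGC libraries and 85.3, 59.1 and 64.4 CPM in NG3_1, NG3_2 and NG3_3, with NGC_1 the highest of the controls. Dkc1 had 228, 175 and 168 CPM in the NGC libraries and 150.5, 135 and 104 CPM in NG3_1, NG3_2 and NG3_3. Its NG3 values lay below NGC, with a log2 difference of -0.55 ± 0.13 (SE; adjusted p = 0.0556), short of the threshold. The proteasome list had medians of -0.14, 0.03 and -0.01. In it NG3_1 and NG3_2 lay below the NGC range in 7 of 22 members and above it in 0. Over all genes these shares were 11.3% and 12.3%. Psmc1, an ATPase of its cap, had 337, 301 and 288 CPM in the NGC libraries and 249, 252 and 172 CPM in NG3_1, NG3_2 and NG3_3.

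Cytosolic ribosomal proteins split. Their medians were -0.14, 0.08 and 0.14, and NG3_3 lay above the other 11 libraries in 11 of 36 and below them in 0. Rplp1, a stalk protein of the large subunit, had 1313, 1590.4 and 1233 CPM in the NGC libraries and 1814, 2520.4 and 2733 CPM in NG3_1, NG3_2 and NG3_3, a log2 difference of 0.77 ± 0.17 (SE; adjusted p = 0.0705). Rpl13 had 890.2, 624 and 648 CPM in the NGC libraries and 589.7, 459.8 and 666 CPM in NG3_1, NG3_2 and NG3_3, with NG3_3 inside the NGC range and NG3_1 and NG3_2 below it.

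The nuclear subunits of the respiratory chain were higher in NG3_3 by their median, 0.01, 0.19 and 0.32 in NG3_1, NG3_2 and NG3_3. NG3_3 lay above the other 11 libraries in 11 of 25 and below them in 0. Without NG3_3, 4 were higher and 0 lower at an unadjusted p under 0.05, against 3.87% and 4.74% of all genes. Uqcrc1, a core subunit of complex III, had 112, 113 and 68.7 CPM in the NGC libraries and 129.7, 162 and 158 CPM in NG3_1, NG3_2 and NG3_3. The 3 NG3 libraries were above NGC, with a log2 difference of 0.61 ± 0.16 (SE; adjusted p = 0.106). The list of the mitochondrial genome holds ribosomal RNAs besides subunits, and 10 of its 15 genes were tested. These had medians of -0.31, -0.06 and -0.47, with a median GC share of 35.8%. mt-Nd2 had 6648, 6679 and 10464 CPM in the NGC libraries and 5104, 6063 and 2386 CPM in NG3_1, NG3_2 and NG3_3, and mt-Cytb had 7824, 7852 and 7942 CPM in the NGC libraries and 6679.9, 6786 and 7803 CPM in NG3_1, NG3_2 and NG3_3, so that NG3_3 was far below all others for the first and at the control level for the second.

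Mitosis genes were the list with the most members set apart on the low side in NG3_3 among those with 20 or more tested members: 12 of 24 lay below and 2 above the other 11 libraries, with medians of -0.00, 0.17 and -0.18. Cenpf and Cenpe, 2 large proteins of the kinetochore, show it. NG3_1 was also below every control for both genes, and NG3_2 for Cenpe. Cenpf had 429, 421 and 374 CPM in the NGC libraries and 309, 412 and 172 CPM in NG3_1, NG3_2 and NG3_3, and Cenpe had 331, 330.4 and 280.5 CPM in the NGC libraries and 264, 271 and 148 CPM in NG3_1, NG3_2 and NG3_3. Bub1b, a checkpoint protein, had 96.3, 90.3 and 109 CPM in the NGC libraries and 119, 137 and 114 CPM in NG3_1, NG3_2 and NG3_3, above the controls in all 3 NG3 libraries, with a log2 difference of 0.33 ± 0.15 (SE; adjusted p = 0.423). Kif23, a kinesin of cytokinesis, had 133, 141 and 154 CPM in the NGC libraries and 166, 188 and 104 CPM in NG3_1, NG3_2 and NG3_3, with NG3_1 and NG3_2 above and NG3_3 below the controls. DNA replication genes had medians of -0.11, -0.01 and 0.02, and NG3_3 lay above the other 11 libraries in 7 of 30 and below them in 7.

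**Figure D5:**
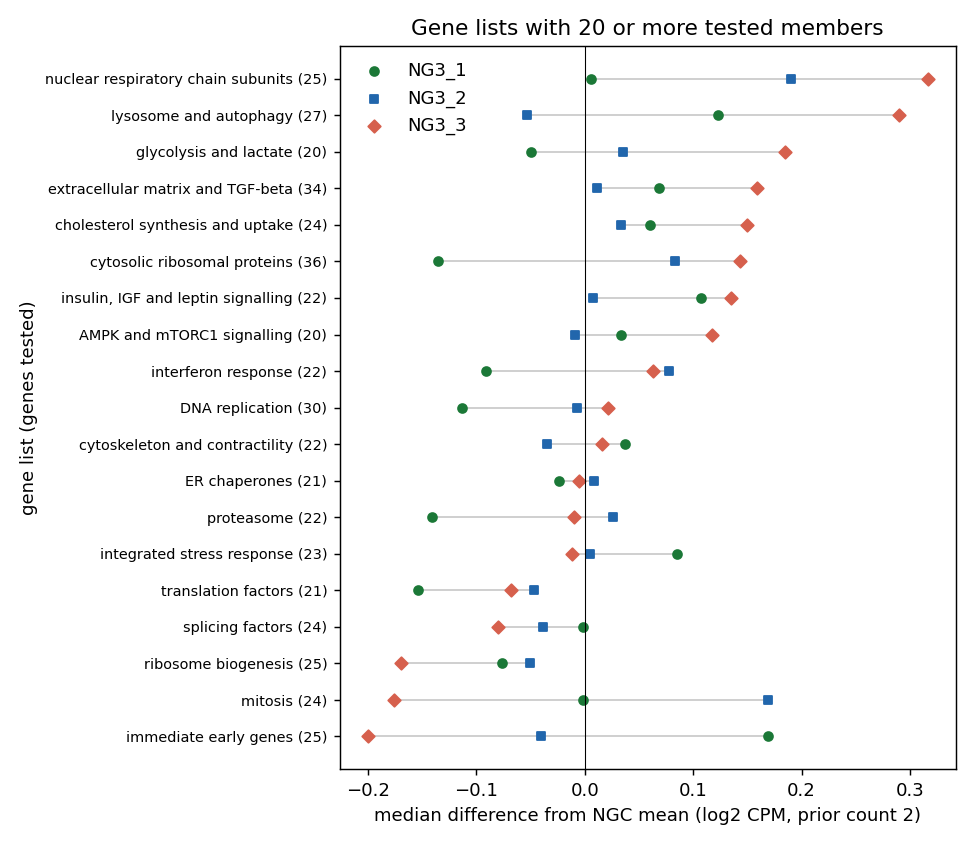
Median difference from the NGC mean (x axis, log2 CPM with a prior count of 2) of the tested members of 19 gene lists (y axis, number of tested members in brackets) in NG3_1 (green), NG3_2 (blue) and NG3_3 (red). The medians of NG3_3 reach from -0.20 for immediate early genes to 0.32 for nuclear respiratory chain subunits, wider than those of NG3_1 and NG3_2.

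Lysosome and autophagy genes had medians of 0.12, -0.05 and 0.29, with NG3_3 above the other 11 libraries in 9 of 27 and below them in 2. Hexa, a subunit of a ganglioside-degrading hexosaminidase, had 53.2, 68.99 and 53.8 CPM in the NGC libraries and 68.6, 85.3 and 100.1 CPM in NG3_1, NG3_2 and NG3_3, a log2 difference of 0.53 ± 0.14 (SE; adjusted p = 0.0943). Lamp2, a protein of the lysosomal membrane, had 292, 279 and 340.2 CPM in the NGC libraries and 347, 371 and 413 CPM in NG3_1, NG3_2 and NG3_3, a difference of 0.31 ± 0.10 (SE; adjusted p = 0.215). The 3 NG3 libraries were above NGC in Lamp2, and NG3_1 was inside the NGC range in Hexa. Cholesterol synthesis and uptake genes had medians of 0.06, 0.03 and 0.15. Mvd, an enzyme of the mevalonate pathway, had 34.5, 28.6 and 39.3 CPM in the NGC libraries and 38.5, 26.2 and 58.95 CPM in NG3_1, NG3_2 and NG3_3, and only NG3_3 among the NG3 libraries was above the controls. Scd2, a fatty acid desaturase, had 234, 267 and 245 CPM in the NGC libraries and 291, 347 and 358 CPM in NG3_1, NG3_2 and NG3_3, above NGC in all 3, with a log2 difference of 0.42 ± 0.11 (SE; adjusted p = 0.0834).

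Immediate early genes had medians of 0.17, -0.04 and -0.20. NG3_3 lay below the other 11 libraries in 8 of 25 and above them in 2. Fos had 33.2, 33.2 and 37.3 CPM in the NGC libraries and 62.9, 76.5 and 29.97 CPM in NG3_1, NG3_2 and NG3_3, and Egr1 had 278, 325 and 227 CPM in the NGC libraries and 352, 386 and 201 CPM in NG3_1, NG3_2 and NG3_3. Both encode transcription factors induced within minutes of a stimulus, and for both NG3_1 and NG3_2 were above the controls and NG3_3 below them. The difference of Fos was 1.01 ± 0.29 (SE; adjusted p = 0.305) without NG3_3. Klf6, another early factor, had 278, 241 and 219 CPM in the NGC libraries and 228, 239 and 80.3 CPM in NG3_1, NG3_2 and NG3_3, with NG3_1 and NG3_2 inside the NGC range.

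Among genes of glucose and energy sensing, no member was called. Txnip, the arrestin that rises with glucose and limits its uptake, had 88.5, 119 and 168 CPM in the NGC libraries and 129, 173 and 183 CPM in NG3_1, NG3_2 and NG3_3, so that NG3 lay within the wide range of the controls or just above it. Arrdc4 had 9.81, 8.96 and 4.04 CPM in the NGC libraries and 10.4, 6.72 and 11.1 CPM in NG3_1, NG3_2 and NG3_3. Insr, the insulin receptor, had 21.2, 15.5 and 17.1 CPM in the NGC libraries and 10.6, 13.4 and 8.67 CPM in NG3_1, NG3_2 and NG3_3. It was below NGC in each NG3 library, with a log2 difference of -0.72 ± 0.24 (SE; adjusted p = 0.2). Stk11, the kinase LKB1 that switches on AMPK, had 24.5, 31.5 and 25.9 CPM in the NGC libraries and 34.5, 44.5 and 57.7 CPM in NG3_1, NG3_2 and NG3_3, and Sesn1, a sestrin that restrains mTORC1, had 9.03, 7.26 and 9.52 CPM in the NGC libraries and 17.8, 17.6 and 15.1 CPM in NG3_1, NG3_2 and NG3_3. Both were above NGC in each NG3 library, with log2 differences of 0.74 ± 0.20 (SE; adjusted p = 0.102) and 0.96 ± 0.28 (SE; adjusted p = 0.138). Slc2a1, the glucose carrier GLUT1, had 39.2, 35.8 and 24.98 CPM in the NGC libraries and 31.3, 38.03 and 38.9 CPM in NG3_1, NG3_2 and NG3_3, within the spread of the controls. The sweet taste receptor subunits Tas1r2 and Tas1r3, the G protein subunit Gnat3 and the channel Trpm5 were at 0 to 0.74 CPM in the 6 libraries, below the filter.

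Dose label 3 was also set against the other dose labels in normal glucose. No gene passed against NG1 (0%) or NG2 (0%) by edgeR, with 871 (6.56%) and 811 (6.11%) at an unadjusted p under 0.05. Of the 871, 324 were higher in NG3 (2.44%) and 547 lower (4.12%), and of the 811, 350 were higher (2.64%) and 461 lower (3.47%). By DESeq2 there were 1 and 0 calls, and without NG3_2, edgeR called 27 and 8. The 17 genes called against NGC were chosen on the same NG3 libraries, so their direction against NG1 and NG2 is no separate evidence. Their adjusted p-values reached down to 0.409 against NG1 and 0.539 against NG2. For the 16 genes that fell, the median log2 difference from NGC was -0.23 in NG1 and -0.29 in NG2. In NG3, on which the genes were chosen, it was -0.61 with all 3 libraries and -0.43 without NG3_3. All of these use the NGC libraries, of which NGC_1 was the highest in 15 of the 16 genes, so no order of the doses is read from them. Mphosph8 had 87.4, 103 and 84.3 CPM in NG1 and 76.97, 114 and 75.8 CPM in NG2, and most of these values lay between NG3 and NGC. Gm1673 had 42.4, 29.6 and 22.4 CPM in NG1 and 38.2, 25.3 and 32.8 CPM in NG2, and each NG3 library was above all 6.

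In high glucose, dose label 3 rests on 2 libraries, since HG3_2 was left out as identical to a library of another group. The 16 genes that fell in normal glucose had a median log2 difference of 0.02 between HG3 and HGC, and 7 of the 17 called genes had the same sign there. Over all genes the same sign held in 48.2%. The difference between the 2 effects did not pass for any gene by edgeR (0% of 13281), with 1091 at an unadjusted p under 0.05 (8.21%) and 24 calls by DESeq2. Of the 1091, the effect in normal glucose was the higher in 529 (3.98%) and the lower in 562 (4.23%). The adjusted p of the 17 genes ranged from 0.175 to 0.597. Mphosph8 had 91.7, 81.4 and 94.4 CPM in HGC and 78.8 and 118 CPM in HG3_1 and HG3_3, so that these groups overlapped.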

How the data were processed

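Each deposited file holds the raw gene counts of 1 library, without any normalization. Per the submitters' processing notes, the authors used FastQC 0.11.9, STAR 2.7.5c, HTSeq 1.99.2, DESeq2 3.16 and the build GRCm39. Per the labels' protocols, polyadenylated RNA was extracted with DNase treatment. Whether counting used strand is not stated, so a gene and an antisense gene over it cannot be told apart. The annotation at hand is GRCm38, and for that reason coordinates are left out.

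The 5 HTSeq summary lines stayed out of library sizes and tests: reads outside genes took 14.4 to 18.9%, ambiguous reads 3.52 to 4.15% and reads aligned to several places 16.5 to 18.9% of the 6 libraries. Counts of 56941 IDs were fitted with edgeR 4.0.16 in R 4.3.3 (TMM, default filter, 13281 genes, robust quasi-likelihood, 14 residual degrees of freedom, median SE 0.23). The fit held 22 of 24 libraries, because HG2_3 and HG3_2 were identical files. Without NG3_3 it held 21 libraries and 13234 genes, with a median SE of 0.25. P-values were adjusted by Benjamini-Hochberg over all genes tested, with a threshold of 0.05. DESeq2 1.42.0, other factors, filters and sample sets, and leaving out each library, were alternatives, and removal of the GC trend was added after the data were seen. The fits were tested on simulated data.

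Named genes were, in each comparison, up to 10 called rises and falls with 5 CPM or more and no overlap, else the 5 of lowest p. To these were added the 10 largest differences of NG3_3 each way, up to 4 members of each list by p without NG3_3 and up to 4 by the difference of NG3_3, and a fixed set of glucose, feeding and taste genes. Some genes under this rule are not reported here. Baz2b, Zfr, Mtdh and Smc1a, and the genes in the sequence lines, fall outside this rule and were chosen after their values were seen. The 6 libraries and the lists (974 of 993 entries matched) were chosen with earlier results of these data known.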

Additional observations from a re-analysis of the deposited data

Results flagged for a closer look

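Some NG3 libraries lay above every control in reads that did not enter the gene counts. Reads outside genes were 18.9% of the reads in NG3_1 and 18.7% in NG3_2, above the highest NGC library at 18.2%, while NG3_3 had 14.4%. NG1_2, NG1_3, NG2_1 and NG2_3 had 18.9, 20.6, 18.7 and 19.3%. The values of NG3_1 and NG3_2 thus lay within those of the other dose labels. Ambiguous reads were 4.15% in NG3_3, above the highest control at 3.89%, and 3.70% and 3.52% in NG3_1 and NG3_2. Reads aligned to several places were 18.9% in NG3_3, above the highest control at 17.7%, and 16.5% and 16.9% in NG3_1 and NG3_2. The NG3 libraries thus did not move together. These differences were not tested.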

How the results depend on the processing

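NG3 against NGC gave 17 calls, and 150 with DESeq2, 5 with RLE factors (1 rose and 4 fell: Gm1673, Mphosph8, Pfdn1, Prpf4b and Esf1), 186 with no low-count filter, 53 with all 24 files, and 0 with only NG3 and NGC in the fit, with only normal glucose, or with limma voom library weights (725, 1142 and 1066 genes at an unadjusted p under 0.05). Leaving out 1 library gave 0 to 182. Without NG3_3 there were 0 calls, and 32 with DESeq2, 30 with no filter, 8 with only NG3 and NGC in the fit, and 0 to 2 on leaving out a further library. NG3 against NG1 gave 0 calls, and 1 with DESeq2, 14 with no filter, 1 with all 24 files and 0 to 27 on leaving out 1 NG3 library. NG3 against NG2 gave 0, and 3 with no filter and 0 to 8 on leaving out 1 library. The difference between the effects in the 2 media gave 0, and 24 with DESeq2, 30 with no filter, 4 with all 24 files and 0 to 5 on leaving out 1 library. Genes set apart in NG3_3 numbered 144 higher and 483 lower, 631 and 950 at 1 CPM or more, 21 and 253 at 20 CPM, 575 and 1237 at 1.5-fold, and 9 and 75 at 4-fold. List members called were 2, 0 with RLE factors, and 0 to 19 on leaving out 1 NG3 library. None of the 17 genes changed direction in any of these fits, which is no separate evidence. All 3 NG3 libraries lay on 1 side of the NGC range in each of the 17, so leaving out a library could not reverse it. The cause of the shifts in the number of calls was not tested. Same-numbered NG3 and NGC libraries had correlations of 0.165, 0.0975 and 0.0478 in their deviations, each the highest of its number, which is a hint of pairing from the data. The values are small and no label ties a number to a shared culture or batch, so the numbers were not taken as pairs. The fit with the replicate block gave 20 calls (2 rose, 18 fell), 16 of them among the 17, and 0 without NG3_3. At 3792926 to 5210198 gene counts a library, the median SE of a log2 change was 0.23, which limits the differences that can be seen.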

Other observations

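NG3_2 differed from NG3_1 and NG3_3 in its processed pseudogenes. The medians by class were taken for the NG3 libraries only, so whether NG3_2 lay outside the other libraries was not tested. Of 220 processed pseudogenes with 5 CPM or more, the median log2 difference from NGC was -0.46 in NG3_2, 0.08 in NG3_1 and 0.18 in NG3_3. For 25 transcribed processed pseudogenes it was -0.38, 0.02 and 0.10. Processed pseudogenes share sequence with their parent genes, so their counts depend on how reads were assigned. Protein-coding genes had medians of 0.00 in NG3_1, 0.02 in NG3_2 and 0.03 in NG3_3. NG3_2 was also low by its median in 80 long intergenic noncoding RNAs (-0.17) and 23 sense intronic RNAs (-0.28). In these NG3_1 had -0.00 and 0.11, and NG3_3 had 0.06 and -0.25.

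Of 6 tested genes in the list of replication-dependent histones, none was called with or without NG3_3, and 0 were at an unadjusted p under 0.05. NG3_3 lay below the other 11 normal-glucose libraries in 2 of the 6 and above them in 0. These 2 are linker histones. H1f4 had 40.03, 44.8 and 27.1 CPM in the NGC libraries and 33.1, 68.9 and 11.6 CPM in NG3_1, NG3_2 and NG3_3, and H1f5 had 7.46, 7.26 and 3.81 CPM in the NGC libraries and 8.63, 9.04 and 1.73 CPM in NG3_1, NG3_2 and NG3_3. NG3_2 was above the controls for both and NG3_3 below them.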
